A study of Mus musculus with 2 samples.

Results

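GIMAP genes encode GTPases of the immunity-associated protein family, which are found mainly in lymphocytes. The mouse genes Gimap1, Gimap3, Gimap4, Gimap5, Gimap6, Gimap7, Gimap8 and Gimap9 were taken by their names on the array, without regard to signal, and were represented by 10 of 55681 non-control probes. They are 8 of the 22221 named genes with a probe. Signal was measured in P5424, a mouse T-cell line, on 2 one-colour arrays that carry oligonucleotides of 60 bases. Both samples have the same label, untreated cells with Rag2 and P53 knockout, so the arrays form 1 group and no comparison between conditions exists. They are called replicate 1 and replicate 2. P5424 is 1 line, and nothing in the labels tells whether the replicates were grown apart, so the SDs given here may hold technical spread alone. Without a second group, no test between conditions was run.

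GIMAP proteins share a guanine nucleotide-binding domain of the AIG1 type, and several carry a carboxy-terminal anchor that places them on intracellular membranes. The genes lie side by side in a cluster and are known for their part in the survival of lymphocytes: loss of Gimap5 causes T-cell lymphopenia in rats, and mice without Gimap1 lack most mature T and B cells. Family members have been reported to bind proteins of the BCL2 family, which control mitochondrial apoptosis, and Gimap6 binds Gabarapl2, an ATG8 protein of autophagy. Several of the genes change in level as thymocytes pass through selection and mature.

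Each probe reads 60 bases of its transcript, and the array annotation gives the base where it starts. The set of Gimap4 probes is printed because the probes of this gene gave different calls, those of Gimap9 and Gimap7 because one was detected and the other was not, and those of Gimap5 and Gimap3 because these neighbours are close paralogs. Capitals mark the longest run that a probe shares with a probe of another GIMAP gene. Probes of Gimap4 at base 500, Gimap9 and Gimap7 are given whole, and the others as a stretch of 30 bases around that run.
Gimap9, base 518 of its transcript: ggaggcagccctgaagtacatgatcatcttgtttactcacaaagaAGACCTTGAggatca
Gimap7, base 904: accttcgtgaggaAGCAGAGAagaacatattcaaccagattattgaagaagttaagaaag
Gimap4, base 500: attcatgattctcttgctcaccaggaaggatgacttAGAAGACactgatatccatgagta
Gimap4, base 1060, stretch from 21 to 50: ttctgcatttcCCTTGATAaccctgcccta
Gimap4, base 1565, stretch from 1 to 30: agatctcacaAGTCAAATAatccaggttga
Gimap5, base 1244, stretch from 1 to 30: attaatttCACTCTcatttgattcccatgg
Gimap3, base 2085, stretch from 31 to 60: cctaataaacagAGACCTTGAtaggaaaga

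No GIMAP probe shared more than 9 bases in a row with a probe of another GIMAP gene. The longest was AGACCTTGA in Gimap9 and Gimap3, and AGTCAAATA in Gimap4 and Gimap6. Against every other non-control probe on the array, the longest shared run was between 13 and 15 bases. The probes for Gimap5 and Gimap3 are therefore distinct oligonucleotides, although their genes are similar. Probes were compared with probes alone. Binding of a probe to the transcript of another gene, with or without a probe on the array, was therefore not tested. GC content ran from 35.0% (Gimap8 and Gimap5) to 45.0% (Gimap9 and Gimap6). Probes of Gimap8, Gimap6 and Gimap4 at base 1060 had a stop codon in each of the 3 sense frames, so none of these 3 lies wholly in coding sequence. The other 7 probes had at least 1 frame without a stop, which does not show that they are coding. Exon and UTR boundaries of the transcripts were not analysed here.

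On replicate 1, 42.5% of the probes were marked well above background by the scanner software, and on replicate 2 41.2%. Where a spot was not significantly above background, the software had put a surrogate, its own estimate of the error, in place of the processed signal, as for 303 of the 308 negative control spots of replicate 1 and 295 of those of replicate 2. Such values are positive and have no order among themselves, so spots that carry one are given here by their background-subtracted signal. The negative controls had background-subtracted signals with a median of -4.33 intensity units and a highest value of 14.1 on replicate 1, and of -4.67 and 116 on replicate 2. The brightest processed control signal was 15.1 units on replicate 1 and 101 on replicate 2, where 1 spot stood apart from the next, at 17.6. Probes of both genes labelled as knocked out gave signal, with Trp53 (the gene symbol of P53) at 746 and 996 units and the 2 Rag2 probes at 2132 and 2086 units and at 89.2 and 88.3 units. Which part of either gene was deleted is not given in the sources used here, so these signals check nothing about the label. Of 10 T-cell markers 10 were detected by the rule given below, beside 51.7% of all named genes. Among them were Cd3e, Cd3d and Cd3g, chains of the T-cell receptor complex. They stood at 8.31 ± 0.17, 8.91 ± 0.06 and 7.17 ± 0.03 (SD, n = 2) on the log2 scale used for the GIMAP genes.

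A probe was called detected when it was well above background on both arrays, and a gene when any of its probes was. Of the GIMAP genes, 5 of 8 met this rule, beside 51.7% of all named genes and 45.1% of genes that, like 7 of the 8, have 1 probe. This count was not tested against other genes and sets the family apart from none. Detected were Gimap9, Gimap4, Gimap6, Gimap1 and Gimap5. Gimap8, Gimap7 and Gimap3 were well above background on neither array.

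The 10 probes lie between positions 48610775 and 48714522 of chromosome 6 in the mouse build mm9, a span of 104 kb, in the order Gimap8, Gimap9, Gimap4, Gimap6, Gimap7, Gimap1, Gimap5 and Gimap3. Gimap6 and Gimap3 are read from the minus strand and the other 6 genes from the plus strand, as in the RefSeq promoter table for all 8. Detected genes did not form 1 unbroken block along this order. Gimap8 at one end and Gimap3 at the other were both undetected, and Gimap7 was undetected between Gimap6 and Gimap1. Signals were also put on a log2 scale on which 0 is the 75th percentile of all non-control probes of the same array, and a value means a level on that scale. Since probes differ in how well they bind, a higher value of one gene than of another does not show a larger amount of transcript.

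The probe for Gimap9 (chromosome 6, 48627839 to 48627898) read 1058 units on replicate 1 and 1094 on the other array. Both arrays put it above their 75th percentile, with a value of 1.79 ± 0.12 (SD, n = 2). Gimap6, the partner of Gabarapl2 (48651666 to 48651725), gave 1224 and 1057 units. Its value was 1.87 ± 0.07 (SD, n = 2), again above 0 on both arrays. Gimap1, which mature lymphocytes need (48693409 to 48693468), gave 687 and 665 units and a value of 1.12 ± 0.05 (SD, n = 2). None of the 308 negative control spots of either array reached the signal of any of these 3 probes.

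Gimap5, the gene whose loss causes lymphopenia in rats (48703501 to 48703560), was detected below the 75th percentile. It gave 155 units on replicate 1 and 108 on replicate 2, with a value of -1.27 ± 0.29 (SD, n = 2), and both arrays put it below 0. On replicate 2 the processed signal was just above that of the brightest negative control spot, at 101 units, while before the software's correction for trends the order was the other way, with 101 units for Gimap5 and 116 for that control. No other control spot reached it on either array. Of the detected members, 3 had a mean value above 0 and 2, Gimap5 and Gimap4, a mean below it. Over all detected genes, 75.3% had a mean above 0.

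**Figure D1:**
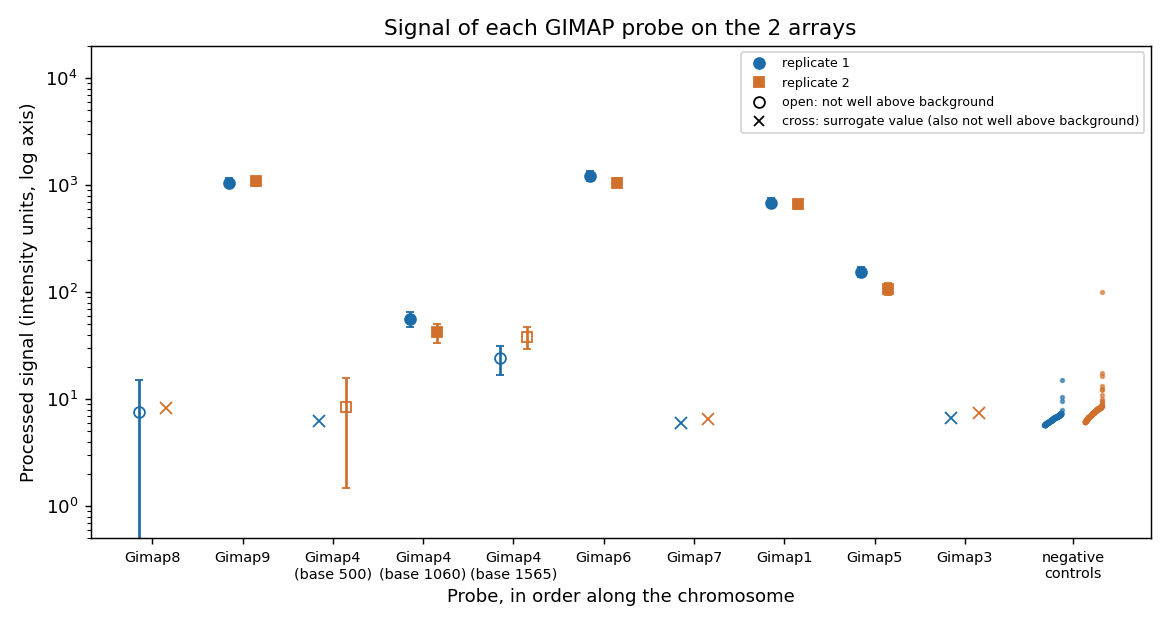
Processed signal in intensity units, on a log axis, for each of the 10 GIMAP probes in chromosomal order, with replicate 1 as circles and replicate 2 as squares, and the 308 negative control spots of each array at the right. Error bars are the scanner software's error of each spot, open symbols are not well above background, and crosses are surrogate values, which have no error bar. Filled symbols are those of Gimap9, Gimap6, Gimap1, Gimap5 and 1 Gimap4 probe, and Gimap7 and Gimap3 show crosses on both arrays.

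Gimap4, reported to speed the death of T cells once apoptosis has begun, was detected with 1 of its 3 probes. Its probes start at bases 500, 1060 and 1565 of the same transcript. The steps between them, 560 and 505 bases, are the same on the genome as in the transcript, which leaves no room for an intron between the probe starts. The probe at base 1060 (48641312 to 48641371) gave 56.1 units on replicate 1 and 42.3 on replicate 2, with a value of -2.68 ± 0.20 (SD, n = 2), and was well above background on both. The probe at base 1565 (48641817 to 48641876) gave 24.3 and 38.4 units and was well above background on neither, though its signal was positive and significant on both. The probe at base 500 (48640752 to 48640811) lay within the range of the negative controls, with a background-subtracted signal of 1.37 units on replicate 1 and 8.99 on replicate 2, which 47 and 7 of 308 control spots reached. Only the second of these was significant. Detection of Gimap4 therefore rests on 1 dim probe. On replicate 2 the single bright control spot exceeded that probe, and the other 307 control spots were below it.

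The 3 undetected genes gave background-subtracted signals within the range of the negative controls. Gimap8, which encodes a protein with more than 1 GTPase domain (48610775 to 48610834), read 6.82 units on replicate 1 and 5.65 on replicate 2, and 5 and 15 of 308 control spots were at or above it. On replicate 1 its signal was positive and significant, and on replicate 2 it was not. Gimap7 (48674271 to 48674330) read 5.53 units, with 8 control spots at or above it, and then -10.2 units, below background, with 283. Gimap3, a mitochondrial protein by its description on the array (48714463 to 48714522), read 5.82 and 2.40 units, with 6 and 31 control spots at or above it. The processed signals of Gimap7 and Gimap3 on both arrays, and of Gimap8 on replicate 2, were surrogates. On replicate 1 all 3 probes were thus above most control spots while under the detection threshold. For these genes no level can be given. The lowest signal of any probe called well above background was 28.9 units on replicate 1 and 31.1 on replicate 2, which is not a fixed limit, since the Gimap4 probe at base 1565 was not called at 38.4 units on replicate 2.

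The software's p-value compares a spot with its background in either direction. For Gimap7 it was 0.0280 on replicate 1 and 0.000400 on replicate 2, where the spot was below background. For Gimap3 it was 0.0209 and 0.399, and for Gimap8 0.00686 and 0.0480. Of these 6 spots, only that of Gimap8 on replicate 1 was called positive and significant.

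The same 5 genes were called under several other rules. With either array sufficing, 5 members were called, beside 54.3% of all named genes. With a positive and significant signal on both arrays, the weaker call of the software, the same 5 were called, beside 67.5%. Requiring every probe of a gene left 4 members, beside 44.6%, and requiring a signal above the highest negative control spot of each array left the same 4, beside 45.8%. Gimap4 was the gene lost under both of the stricter rules.

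The arrays gave close values for the detected GIMAP genes. None of the 5 was over 2-fold apart, beside 0.783% of all detected genes. The difference of replicate 2 minus replicate 1 was 0.17 for Gimap9, -0.29 for Gimap4, -0.09 for Gimap6, 0.07 for Gimap1 and -0.41 for Gimap5. Their median absolute difference was 0.17, where that of all detected genes was 0.16. Gimap5 had the widest difference of the 5, 1.32-fold, and the spot errors of the software gave it an error of 0.24. For the other 4 the difference was smaller than its spot error, which was 0.20 for Gimap9 and for Gimap6, 0.21 for Gimap1 and 0.36 for Gimap4. With the array median as the reference, all 5 differences were negative, Gimap9 at -0.06 and Gimap1 at -0.16 having changed sign. The median of all detected probes then stood at -0.23. On each array that reference is itself below the lowest signal called well above background.

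**Figure D2:**
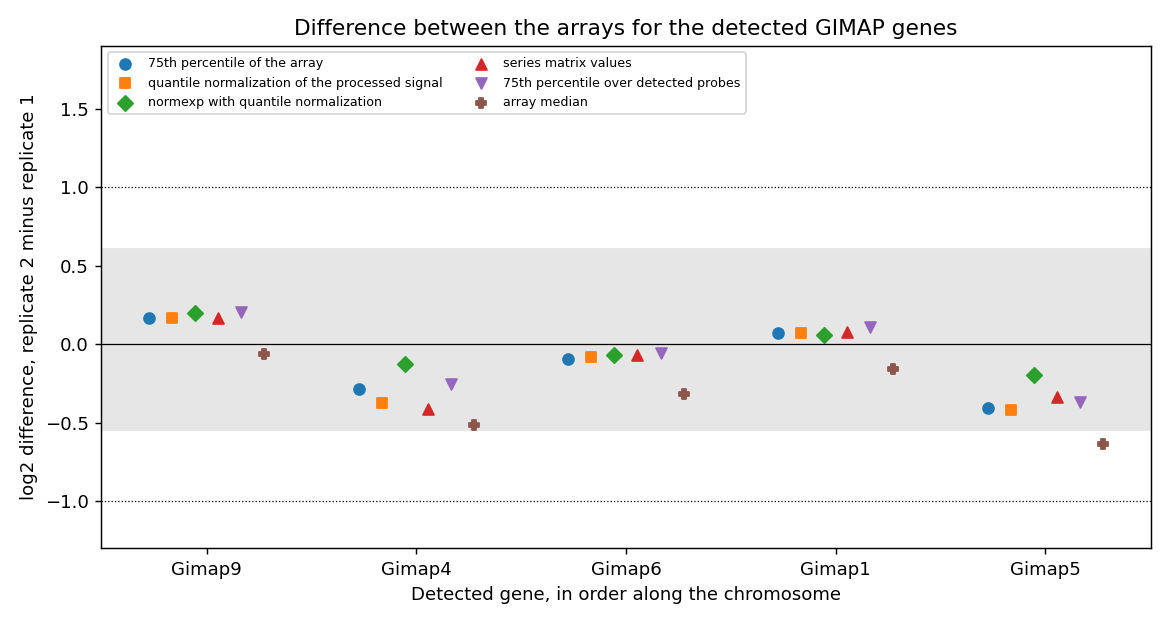
Difference on the log2 scale of replicate 2 minus replicate 1 for the 5 detected GIMAP genes under 6 scalings, 1 symbol each. The grey band holds the central 95% of all detected genes under the 75th percentile scaling, from -0.55 to 0.61, and dotted lines mark 2-fold. No symbol passes 2-fold. Under the array median the Gimap5 symbol, at -0.63, lies below the band. That scaling moves all genes alike, with the median of detected probes at -0.23, and the band is not moved with it. The symbol therefore does not set Gimap5 apart from other genes.

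Genes on either side of the cluster were set beside it by position. Within 500 kb of the outermost GIMAP probes lay probes of 21 other named genes, and 10 of them were detected (47.6%), a share near the 51.7% of all named genes. Before Gimap8, 4 of 10 were detected: Krba1 at 2.68 ± 0.17, Zfp467 at -1.20 ± 0.19, Lrrc61 at 1.42 ± 0.19 and Repin1, a zinc-finger protein gene, at -2.41 ± 0.34 (SD, n = 2). Sspo, Atp6v0e2, Rarres2, Gm5111, Zfp775 and AI854703 were not well above background. The gene next to Gimap8 with a probe, AI854703, gave 25.9 and 19.9 units with its brighter probe. After Gimap3, 6 of 11 were detected, the nearest being Tmem176b.

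Tmem176b and Tmem176a, paired membrane protein genes whose probes lie 69.3 and 79.5 kb beyond that of Gimap3, had values of 3.57 ± 0.03 and 0.84 ± 0.36 (SD, n = 2). The first was detected with 2 of 2 probes, the brighter at 3801 and 3591 units. Doxl1 was detected at -2.55 ± 0.00, Malsu1, which encodes a mitochondrial ribosome assembly factor, at 5.11 ± 0.07, Igf2bp3, an RNA-binding protein gene, at 0.99 ± 0.02 and the splicing regulator Tra2a at 5.57 ± 0.15 (SD, n = 2). Gm7932, Aoc1, Doxl2, Svs1 and Gpnmb were not well above background. Between Gimap7 and Gimap1 lay 2 transcripts with no RefSeq name, A130009E19Rik and ENSMUST00000155906, neither of them well above background on either array.

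**Figure D3:**
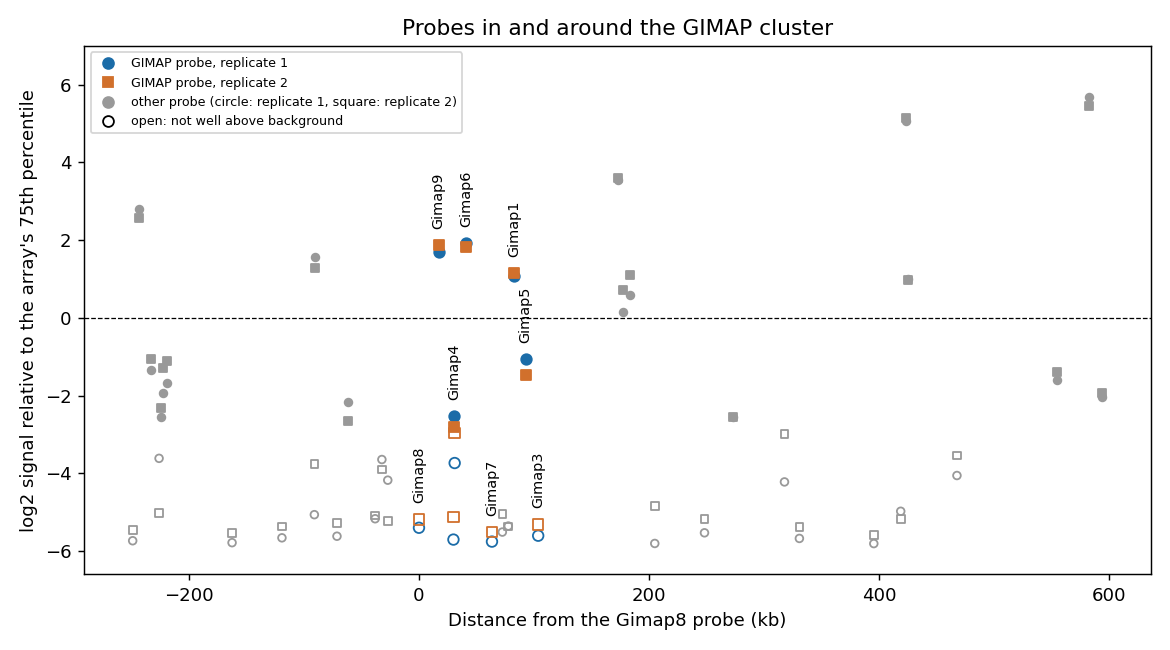
The log2 signal relative to the 75th percentile of the array for every probe within 500 kb of the GIMAP cluster, against distance in kb from the Gimap8 probe, with GIMAP probes in colour and the probes of other genes and unnamed transcripts in grey (circles replicate 1, squares replicate 2, open symbols not well above background, many of them surrogate values without order). Filled GIMAP symbols at Gimap9, Gimap6, Gimap1, Gimap5 and 1 Gimap4 probe stand between open ones at Gimap8, Gimap7 and Gimap3.

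Short lists of genes from the families in which GIMAP partners have been reported were counted, beside 51.7% of all named genes detected. Many members of these and the later lists have more than 1 probe, which gives a gene more chances to be called. Of genes with 1 probe, 45.1% were detected, so the shares of the lists are not matched for probe number. Of 9 BCL2 family genes 9 were detected, among them the survival factors Bcl2 at -0.89 ± 0.40, Bcl2l1 at 6.23 ± 0.01 and Mcl1 at 6.14 ± 0.01 (SD, n = 2). The entry Bcl2a1b was not matched to a probe name. Of 10 ATG8 and autophagy genes 10 were detected, with Gabarapl2, the partner of Gimap6, at 4.53 ± 0.02, Gabarap at 6.03 ± 0.01 and Gabarapl1 at 4.42 ± 0.02 (SD, n = 2). The median value over detected members was 4.46 for the BCL2 family list and 3.49 for the autophagy list, where that of all detected genes was 2.14.

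Families of GTPases that resemble GIMAP proteins in structure or in immune function were also counted, without a test against the GIMAP count. Of all named genes 51.7% were detected. The septins, cytoskeletal GTPases related in structure to GIMAP proteins, had 11 of 12 genes detected, with Sept1 at 6.60 ± 0.04, Sept2 at 5.37 ± 0.01 and Sept3, by 1 of its 2 probes, at 5.71 ± 0.23 (SD, n = 2). Only Sept12 of that list was not well above background. Of 13 interferon-inducible GTPases 12 were detected, with Irgm1 at 2.20 ± 0.22, Irgm2 at 0.81 ± 0.26 and Igtp at 3.42 ± 0.33 (SD, n = 2), and Tgtp1 was not. Their medians over detected members were 5.37 for the septins and 0.05 for the interferon-inducible GTPases.

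Genes known to mark thymocyte stages were counted in lists for before and after selection, with no test between the lists. Of 12 genes of thymocytes before positive selection 12 were detected, beside 51.7% of all named genes. Among the 12 were the recombinase genes Rag1 at 4.06 ± 0.14 and Rag2 at 2.76 ± 0.06 and terminal transferase (Dntt) at 8.58 ± 0.11 (SD, n = 2). Rag2 is labelled as knocked out in these cells, and its value is that of the brighter of its 2 detected probes. Of 14 genes of T cells after selection 5 were detected, among them Ccr7 at -0.63 ± 0.52, Foxo1 at 4.84 ± 0.19, Slfn2 at 0.91 ± 0.17 and Itgb7 at 4.45 ± 0.41 (SD, n = 2). The egress receptor S1pr1, the quiescence factor Klf2 and the cytokine receptor Il7r were among the 9 not detected on both arrays. Cd69 and Ms4a4b, also among the 9, were well above background on 1 array. The count depends on the call: 7 of the 14 were called with either array sufficing, and 10 with a positive and significant signal on both, where all named genes stood at 67.5%.

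Other cells that express GIMAP genes were looked for by their markers, where 51.7% of all named genes were detected. Of 5 natural killer cell markers 0 were detected, with Ncr1, Klrb1c and Klrd1 not well above background. Of 6 B-cell markers 2 were detected, Cd79a, by 1 of its 2 probes, at -2.74 ± 0.11 and Blk at -1.86 ± 0.43 (SD, n = 2), and among the others Ms4a1 and Pax5 were not well above background while Cd79b was found on 1 array. Of 6 endothelial markers 2 were detected, Pecam1 at 0.52 ± 0.09 and Kdr, by 1 of its 2 probes, at 2.71 ± 0.08 (SD, n = 2), and Cdh5, Tek, Tie1 and Emcn were not. Of 6 myeloid markers 3 were detected, Csf1r at -1.61 ± 0.63 and Itgam at 4.40 ± 0.17, each by 2 of 3 probes, and Cd68, by 1 of 2, at 2.34 ± 0.05 (SD, n = 2), and Lyz2 and Fcgr3 were not well above background while Mpo was found on 1 array. Whether cells other than those of the line added to any GIMAP signal was not tested.

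**Figure D4:**
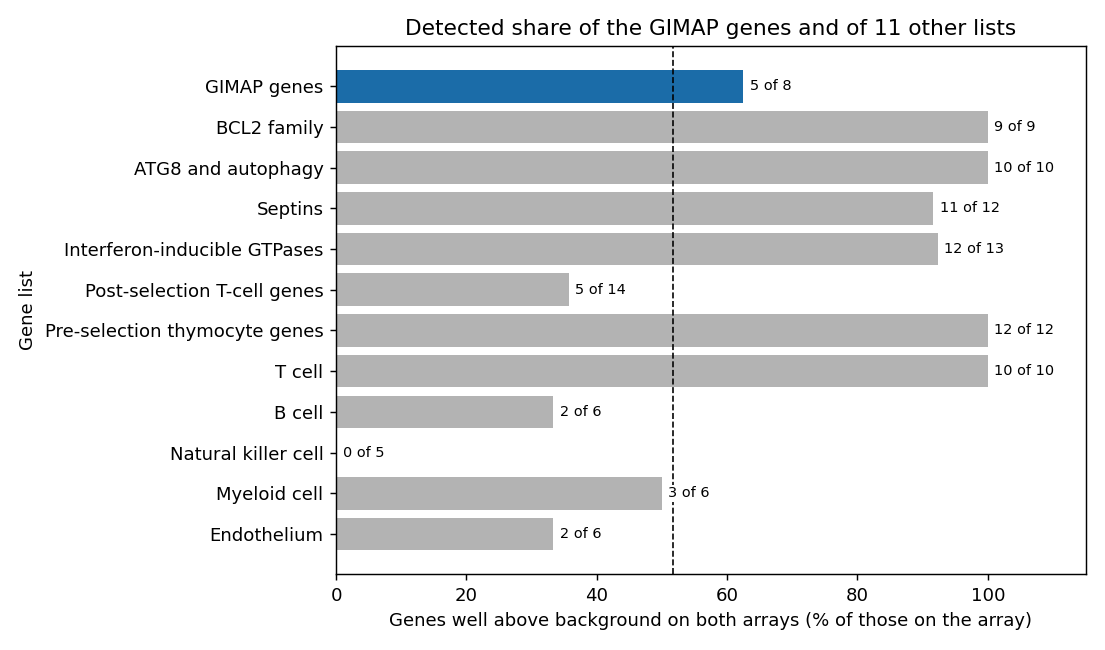
Share of genes well above background on both arrays, in percent of those on the array, for the GIMAP genes (blue) and 11 other lists (grey), with counts at the bars and the share of all named genes, 51.7%, as a dashed line. The GIMAP genes stand at 5 of 8, the pre-selection thymocyte genes at 12 of 12 and the post-selection T-cell genes at 5 of 14. Under the weaker call of the software (positive and significant), not drawn, the post-selection genes were at 10 of 14 and the GIMAP genes still at 5 of 8. The share of all named genes under that call was 67.5%.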

How the data were processed

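Total RNA of P5424 cells was labelled with Cy3 and hybridised to 2 arrays. The intensity values were produced by the authors with Agilent Feature Extraction 10.5.1.1, per the file headers, with background trends corrected and surrogates used for spots not significantly above background. The p-value of each spot against its background was given by the same software, per the file headers. A table of log2 values deposited by the authors has unstated scale and centring. Its column medians were 5.18 and 5.18, and over spots well above background its slope on the log2 scanner signal was 0.997 and 1.01. Probe positions are on mm9, per the file headers.

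Spots with outlier marks were left out (182 and 186, no GIMAP spot), no spot was saturated, and log2 signals were averaged per probe. The 75th percentile of each array was 324 and 299 intensity units. A gene takes its detected probe with the highest mean. Probes were named through the RefSeq table of GRCm38.p6, used for names only: 26762 by accession, 3819 by symbol, 639 by synonym and 24461 without a match. Printed sequences are the probes' own. Alternatives used limma 3.58.1 in R 4.3.3 (normexp with an offset of 50, quantile normalization), the log2 table, other reference points, other detection rules and windows of 250 and 1000 kb. The scaling and the 2-fold count were run on simulated data with changes well above 2-fold and the percentile taken over detected probes. This checks the code alone and not the precision of these arrays.

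Named are all GIMAP genes, all named genes within 500 kb, the first 3 detected and the first 3 undetected members of each list, and each smaller class of up to 5, apart from list members that are not reported here. No gene of like pattern was sought, because 2 arrays of 1 group hold no pattern. Members, lists and rules were chosen with earlier results of these data known. Precision is limited by having 2 arrays.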

Additional observations from a re-analysis of the deposited data

How the results depend on the processing

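Of 97 recomputed values, 76 stayed within the spread between the arrays or within 1.5 times the main count. Part of the 97 could not move, since a list with every gene detected keeps its full count under a looser rule. The 76 therefore does not measure how firm the results are. Another 15 values, not among the 97, were log2 values with 1 of 2 arrays left out or means over the 1 detected probe of a gene. These were fixed by construction. The count of 5 detected GIMAP genes ran from 4 to 5, and no GIMAP gene was over 2-fold apart under any scaling run. Values of a gene shift with the reference point: against the 75th percentile of detected probes, Gimap9 was at -1.72, Gimap4 at -6.19, Gimap6 at -1.64, Gimap1 at -2.39 and Gimap5 at -4.78, and against the array median they were at 5.78, 1.32, 5.86, 5.11 and 2.73, by construction the same shift for all. With normexp, Gimap9 was at 1.60, Gimap4 at -1.65, Gimap6 at 1.67 and Gimap1 at 0.91; the cause was not tested. Around the cluster, 7 of 17 genes were detected within 250 kb (41.2%) and 20 of 34 within 1000 kb (58.8%). The share within 500 kb was 47.6%, so whether it lay below or above the 51.7% of all named genes depended on the window. With a positive and significant signal, 10 of 14 post-selection, 5 of 6 B-cell and 5 of 6 myeloid genes were called, beside 67.5% of all named genes. Requiring every probe left 1 B-cell, 0 myeloid and 1 endothelial gene, beside 44.6% of all named genes. No paired analysis was possible because the arrays form 1 group. For Gimap8, Gimap7 and Gimap3, whose signals lay among those of the negative controls, no level can be given.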
